A study of Mus musculus with 9 samples.

Results

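Sbk1, Sbk2 and Sbk3 encode the SH3-binding domain kinases of the mouse, and all 3 were listed in both deposited tables of normalised gene counts, out of 14300 genes common to the tables and 14971 in either. Sbk2 was chosen on its own values, because its transcript level followed androgen status across the groups compared here. Sbk1 and Sbk3 were taken as its relatives by family membership, whatever their values. The levels and fold changes of Sbk2 are therefore given as a description, with no p-value.

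The RNA came from tibialis anterior, a fast muscle of the lower leg, of 3 groups of male C57BL/6J mice with 3 libraries per group. One group was of control mice (named sham in the tables, and called Control here), another had the testes removed (ORX, for orchiectomy), and the last had the testes removed and received dihydrotestosterone, a potent androgen (ORX+DHT). All carried the same strain background with no engineered allele named in the labels, and all were sampled 4 weeks after treatment. The age of the mice, the dose of dihydrotestosterone and the nature of the control operation are not given in the sources used here. The comparison of ORX with Control, called the orchiectomy contrast here, asks what differs after removal of the testes. The DHT contrast sets ORX+DHT against ORX, and the DHT-to-Control contrast sets ORX+DHT against Control.

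SBK proteins are serine/threonine kinases named after Sbk1, which was first described in brain as a kinase with a region able to bind SH3 domains. Sbk2 and Sbk3 are less studied and are best known as transcripts of the heart, Sbk2 mainly of the atria. Dihydrotestosterone acts through the androgen receptor, a transcription factor of the nuclear receptor family that muscle fibres express.

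The libraries held 1340209 to 1682235 reads over the listed protein-coding genes. Control replicate 1 stood apart from the other 8 libraries on the first principal component of all genes (30.7% of the variance), at 47.2 against -10.6 to -0.716. The second component (19.1%) placed ORX at 16 to 18.7, ORX+DHT at -17.4 to -12.6 and Control at -9.70 to 2.25. The 8 fast-fibre markers summed to 245755 to 253191 normalised counts in Control, 212861 to 222511 in ORX and 217781 to 229211 in the ORX+DHT group. The 6 slow-fibre markers summed to 198 to 318 in Control, 261 to 301 in ORX and 152 to 223 in the ORX+DHT group, which lay below ORX without overlap. Myl3 had the largest part in that, with means of 151 in ORX and 89.4 in ORX+DHT. Atp2a2 (94.7 and 88.6), Tnnt1, Tnni1 and Tnnc1 overlapped between these 2 groups, and Myh7 (7.86 and 2.32) did not. The tissue carried the fast-fibre markers of its label.

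All 3 genes lie on chromosome 7. In the GENCODE release M21 annotation of GRCm38, Sbk2 (ENSMUSG00000030433) occupies chr7:4940512-4964406 on the minus strand, and its longest transcript has 4 exons and 2236 bases. Sbk3 (ENSMUSG00000085272) occupies chr7:4965260-4971168 on the same strand. In the RefSeq gene table of the same build, 840 bases separate Sbk2 from Sbk3. Sbk1 (ENSMUSG00000042978) lies far from that pair, at chr7:126272619-126295016 on the plus strand.

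The 3 kinases are distant relatives at the protein level. Translated from the GENCODE coding sequences, Sbk1 has 417 residues, Sbk2 362 and Sbk3 361. Sbk2 and Sbk3 shared 145 of 329 aligned residues (44.1% identity). Sbk1 shared 131 of 335 aligned residues with Sbk2 (39.1%) and 128 of 342 with Sbk3 (37.4%). In a protein search with Sbk2 (BLASTP), its relatives scored highest, Sbk1 at 219 bits and Sbk3 at 160, and the next, Chek1, a cell cycle checkpoint kinase, scored 101.

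The sequence before the start of Sbk2 is shown because Sbk2 is the member whose level differed among the groups. These are the 250 bases before its start in the RefSeq table of GRCm38.p6, chr7:4964407-4964656, read 5′ to 3′ on the minus strand. Capitals mark GC boxes, the letters GGGCGG that Sp-family factors are known to bind.
Sbk2: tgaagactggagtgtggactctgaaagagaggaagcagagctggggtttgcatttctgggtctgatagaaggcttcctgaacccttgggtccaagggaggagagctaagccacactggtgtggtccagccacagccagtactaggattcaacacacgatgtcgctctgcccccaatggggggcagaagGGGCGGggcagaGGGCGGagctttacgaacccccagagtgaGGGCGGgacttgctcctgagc

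The 3 GC boxes start at -62, -50 and -21 relative to the start of the gene, and 32.7% of 32851 windows of this length in the RefSeq table held at least 1 on either strand. The window was 58.8% G and C, against a median of 52.4% over all windows. The letters AGAACA, the core to which steroid receptors such as the androgen receptor bind, were not in the Sbk2 window on either strand, and 16.1% of all windows held them. The E-box letters CANNTG, bound by myogenic factors, were not in it either (66.2% of windows), nor was TATAAA (12.4%). Each motif was searched on its own on both strands, so a base can belong to matches of more than 1 motif. The Sbk3 window held 1 E-box and none of the other motifs. Its bases lie within an exon of another Sbk3 transcript and are not shown. Sbk1 is named only.

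Sbk2 had a different level in each of the 3 groups. Its normalised counts in Control were 205, 193 and 165 (188 ± 20.6, SD, n = 3). Those in ORX were 108, 74.2 and 94.3 (92.2 ± 16.99, SD, n = 3). Those in ORX+DHT were 356, 362 and 339 (352 ± 11.8, SD, n = 3). Every ORX library was below every Control library, and every ORX+DHT library was above every Control library, so no 2 groups overlapped. These values rest on 87 to 374 reads per library, 1884 reads in all. Without the scaling factors, as RPM (reads scaled to the library's total), the means were 120 ± 8.87 in Control, 65.9 ± 12.5 in ORX and 239 ± 9.67 in the ORX+DHT group (SD, n = 3 each).

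The ORX+DHT mean was 3.82-fold the ORX mean and 1.88-fold the Control mean, and the ORX mean was 2.04-fold below that of Control. Fitted with limma on log2(normalised count + 1), Sbk2 differed by -1.03 (SE 0.18) in the orchiectomy contrast. It differed by 1.94 (SE 0.12) in the DHT contrast, and by 0.91 (SE 0.14) in the DHT-to-Control contrast. The contrasts share groups, so they are not independent of each other. The SEs do not allow for the choice of Sbk2 on these values and are descriptive only. Among the genes fitted in each contrast, in that order, Sbk2 was 33rd from the lowest of 8631, 12th from the highest of 8770 and 58th from the highest of 8595.

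The spread between replicates was smallest, relative to the mean, where Sbk2 was highest. The coefficient of variation was 3.34% in ORX+DHT, 10.96% in Control and 18.4% in ORX. These groups held 1068, 505 and 311 reads of Sbk2, and counting error is relatively larger at fewer reads. Whether the spread differed beyond counting error was not tested. Control replicate 1, the library that stood apart over all genes, had the highest of the Control values of Sbk2. Without it, the log2 difference was -0.96 in the orchiectomy contrast and 0.97 in the DHT-to-Control contrast.

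**Figure D1:**
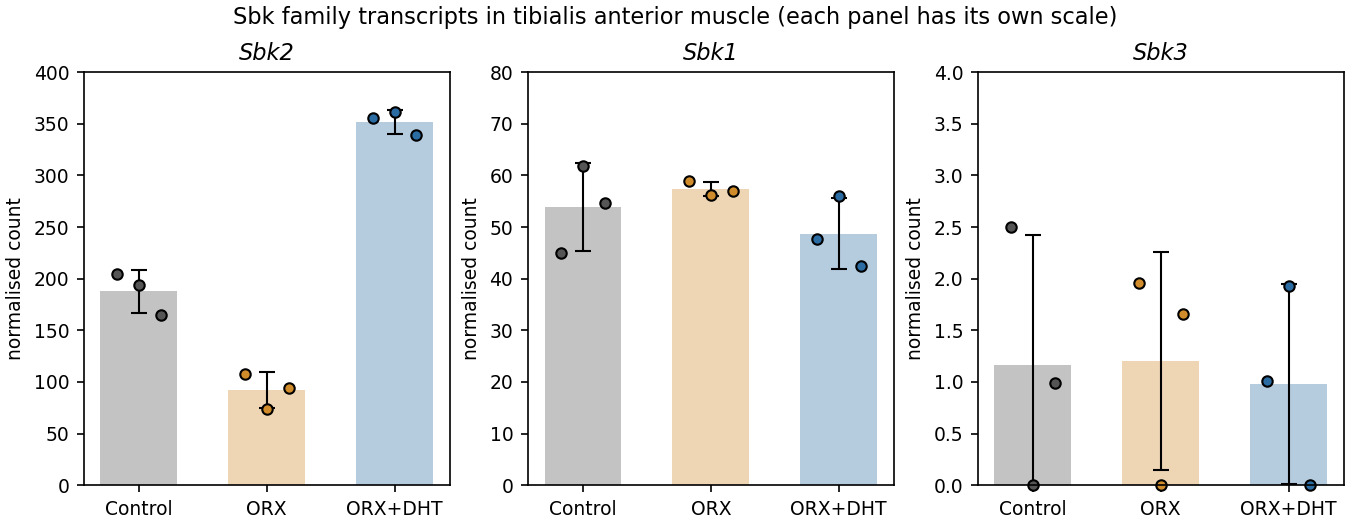
Normalised counts of Sbk2, Sbk1 and Sbk3 in each library (points), with the group mean (bars) and SD (error bars, drawn no lower than 0), n = 3 per group and a separate vertical axis for each gene. The 3 groups of Sbk2 do not overlap, those of Sbk1 lie between 42.5 and 61.9, and Sbk3 has 0 to 2 reads in each library.

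Sbk1, the family member first described in brain, was read in every library, and no difference between its groups passed the test. Its normalised counts were 44.9, 61.9 and 54.6 in Control (53.8 ± 8.51, SD, n = 3). They were 58.9, 56.3 and 57.1 in ORX (57.4 ± 1.34, SD, n = 3), and 47.6, 56.1 and 42.5 in ORX+DHT (48.7 ± 6.86, SD, n = 3). The ORX values lay inside the range of Control, and Control overlapped ORX+DHT. The lowest ORX value (56.3) exceeded the highest ORX+DHT value (56.1) by less than 1 read's worth of normalised count. The means had the reverse order of those of Sbk2, with 36 to 69 reads behind each value.

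The limma test was adjusted over all genes fitted (Benjamini-Hochberg). In the orchiectomy contrast the log2 difference was 0.10 (95% interval -0.31 to 0.51, adjusted p = 0.918 in limma), and without Control replicate 1 it turned to -0.0186. The DHT contrast gave -0.24 (95% interval -0.57 to 0.09, adjusted p = 0.527 in limma). The DHT-to-Control contrast gave -0.14 (95% interval -0.58 to 0.30, adjusted p = 0.877 in limma). Differences of Sbk1 up to these bounds cannot be told from 0 with these libraries, and the intervals do not reach the estimates of Sbk2 in any of the 3 contrasts.

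**Figure D2:**
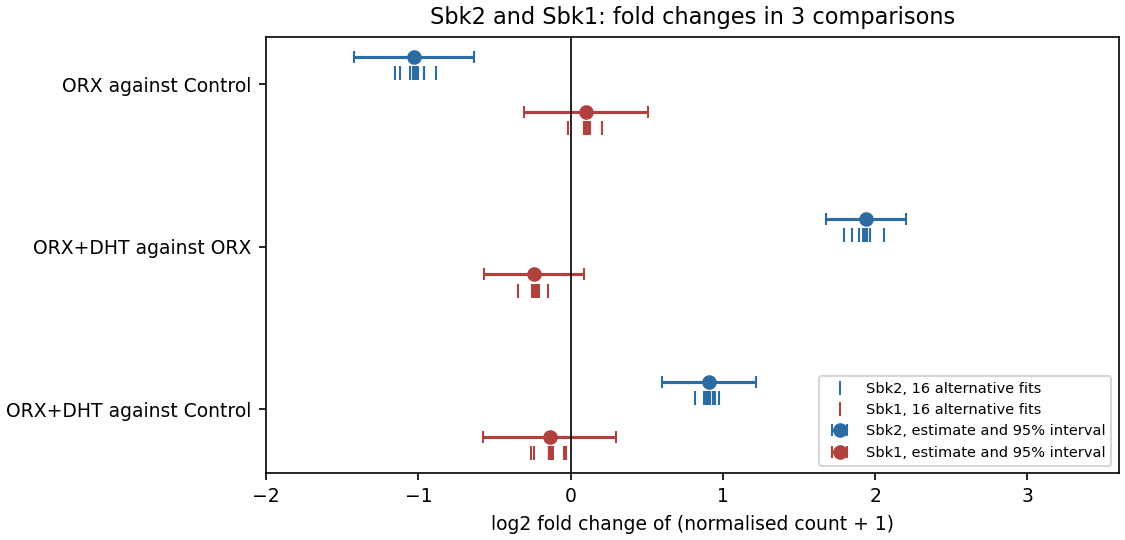
Log2 fold changes of Sbk2 (blue) and Sbk1 (red) in the 3 contrasts, as estimates with 95% intervals (dots and bars) and the estimates under 16 alternative settings each (ticks). The estimates of Sbk2 run from -1.15 to -0.88, from 1.79 to 2.06 and from 0.82 to 0.97 over the alternatives, and the intervals of Sbk1 include 0. The intervals of Sbk2 are descriptive only, since it was chosen on these values.

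Sbk3, the neighbour of Sbk2, was close to the limit of detection. It had 2, 0 and 1 reads in Control, 2, 0 and 2 in ORX and 1, 2 and 0 in the ORX+DHT group, 10 reads in all. The groups overlapped completely. The sums of 3, 4 and 3 reads carry exact 95% Poisson intervals of 0.619 to 8.77, 1.09 to 10.2 and 0.619 to 8.77 reads, which cover counting error only. In the libraries with no read, a level of up to 3.32 normalised counts in Control replicate 2, 2.56 in ORX replicate 2 and 2.96 in ORX+DHT replicate 3 is allowed by the limit of 3 reads. Its mean was below the minimum of 10 normalised counts, so it was not fitted, and a difference of Sbk3 between groups was not detectable at this depth.

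Of the 2 relatives of Sbk2, only Sbk1 was above the minimum and open to a test. Limma called it in 0 of the 3 contrasts at an adjusted p under 0.05, and its unadjusted p was 0.595 in the orchiectomy contrast, 0.143 in the DHT contrast and 0.503 in the DHT-to-Control contrast. edgeR and DESeq2 also called it in 0. Over all genes fitted, limma called 0.0579%, 4.08% and 0.0349% in these contrasts.

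Groups that do not overlap were common among all genes. The share of genes fitted with no overlap was 14.3% in the orchiectomy contrast, 19.5% in the DHT contrast and 14% in the DHT-to-Control contrast. Of the 2 members fitted, 1, 2 and 1 had no overlap in these contrasts, Sbk2 in all 3 and Sbk1 in the DHT contrast. Sbk2 was chosen on these values, so its part in these counts is a description and cannot be set against the shares. The gap of Sbk1 was that between 56.3 in ORX and 56.1 in ORX+DHT. The full order of Sbk2, with ORX below Control below ORX+DHT and no overlap anywhere, was shared by 42 of 8631 genes (0.487%). The reverse order was seen in 24 genes (0.278%). Without Control replicate 1 the order of Sbk2 was seen in 133 genes (1.54%). By the log2 difference of ORX+DHT over ORX, Sbk2 was the fifth of the 42.

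Levels of the 3 genes were set beside each other per kilobase of merged exons (3147 bases for Sbk2, 4227 for Sbk1 and 3197 for Sbk3). Sbk2 stood at 59.6 ± 6.54 normalised counts per kilobase in Control, 29.3 ± 5.40 in ORX and 112 ± 3.74 in the ORX+DHT group (SD, n = 3 each). Sbk1 stood at 12.7 ± 2.01, 13.6 ± 0.316 and 11.5 ± 1.62 (SD, n = 3 each). Ranked by level per kilobase over 14293 genes, 93.9%, 88.6% and 97.0% of genes were below Sbk2 in Control, ORX and ORX+DHT, and 76.1%, 77.7% and 74.6% were below Sbk1. Sbk3 was above 18.4%, 16.9% and 16.6% of genes.

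Per kilobase, the mean level of Sbk2 was 4.68 times that of Sbk1 in Control, 2.16 times in ORX and 9.70 times in ORX+DHT. With the length of the longest transcript in place of merged exons, the ratios were 6.41, 2.95 and 13.3. The ratio of the 2 genes within a library does not depend on how libraries are scaled. The log2 ratio of Sbk2 reads to Sbk1 reads was 2.19, 1.64 and 1.59 in Control, 0.87, 0.40 and 0.72 in ORX, and 2.90, 2.69 and 2.996 in the ORX+DHT group. The groups kept the order of Sbk2 in this ratio, with no overlap. Sbk2 was chosen for that order and Sbk1 varied little, so the ratio is no separate support for it.

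The genes beside the kinases on the chromosome were followed as a set that was not chosen on its values. They were the 4 protein-coding genes on each side of the Sbk2 and Sbk3 pair and the 2 on each side of Sbk1, of which 11 were listed in the tables and 7 were above the minimum. In limma, 0 of the 7 passed the adjusted threshold in each contrast. At an unadjusted p under 0.05 there were 1, 0 and 0 in the orchiectomy, DHT and DHT-to-Control contrasts, and edgeR and DESeq2 called 0 in each. Their log2 differences ran from 0.05 to 0.51, from -0.33 to 0.36 and from -0.12 to 0.43. The medians were 0.14, -0.15 and 0.06, and those of all genes -0.01, 0.01 and -0.01. Of all genes fitted, limma called 0.0579%, 4.08% and 0.0349%, and 7.21%, 14.3% and 6.48% had an unadjusted p under 0.05.

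Ssc5d, which encodes a secreted scavenger receptor, lies on the other side of Sbk2 from Sbk3. Its normalised counts were 20.0, 23.2 and 23.8 in Control, 29.4, 33.3 and 33.9 in ORX, and 26.3, 25.1 and 24.7 in the ORX+DHT group. ORX was its highest group, without overlap, where Sbk2 was at its lowest. The log2 difference was 0.51 in the orchiectomy contrast (adjusted p = 0.676 in limma) and -0.33 in the DHT contrast (adjusted p = 0.478 in limma), so neither passed the test. One GENCODE transcript of Sbk2, read on the minus strand, ends at 4940512. Its end thus lies within Ssc5d, which runs to 4944828 on the opposite strand. The library kit kept strand, but whether the counting used it is not given in the sources used here, so reads in the overlap are of uncertain origin.

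The zinc finger genes on the far side of Sbk3 and the genes around Sbk1 had no difference that passed the same test. Zfp579 averaged 20.8 ± 1.81, 23.1 ± 2.19 and 22.4 ± 6.69 normalised counts in Control, ORX and ORX+DHT (SD, n = 3 each). Fiz1, which encodes a zinc finger partner of a receptor kinase, averaged 33.4 ± 3.46, 36.3 ± 3.002 and 33.1 ± 7.71 (SD, n = 3 each). Xpo6, the export receptor for actin, averaged 58.0 ± 13.7, 59.7 ± 10.03 and 72.8 ± 16.8 beside Sbk1 (SD, n = 3 each). The highest adjusted p of these 3 genes in limma was 0.976 and the lowest 0.518.

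**Figure D3:**
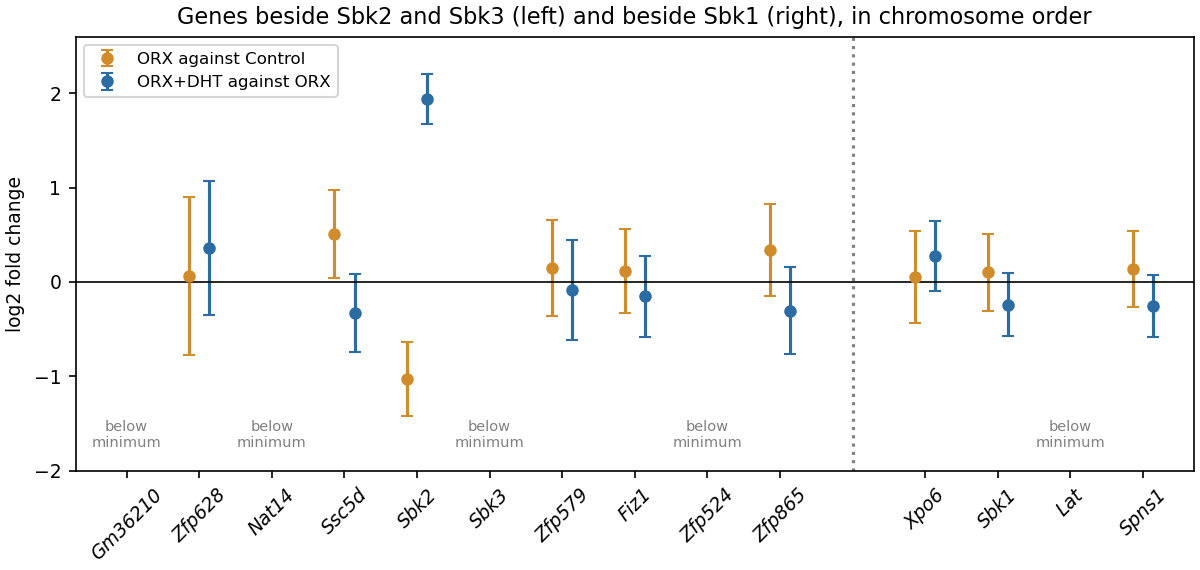
Log2 fold changes with 95% intervals of the listed genes around Sbk2 and Sbk3 (left of the dotted line) and around Sbk1 (right), in chromosome order and not to scale, for the orchiectomy contrast (orange) and the DHT contrast (blue). Sbk2 stands at -1.03 and 1.94, and the 7 neighbours fitted lie between -0.33 and 0.51. Genes under the minimum mean are marked, and the intervals of Sbk2 are descriptive only, since it was chosen on these values.

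The 4 proteins outside the family closest to Sbk2 in sequence were Chek1, Prkaca, Dclk3 and Prkd1, with 96.3 to 101 bits. Of these, Prkaca, the catalytic alpha subunit of protein kinase A, was the only one above the minimum. It averaged 201 ± 19.4, 193 ± 9.76 and 204 ± 5.94 normalised counts in Control, ORX and ORX+DHT (SD, n = 3 each). Its log2 differences were -0.06, 0.08 and 0.02, with adjusted p of 0.947, 0.784 and 0.972 in limma.

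A list of 24 kinases known from striated muscle was used to set Sbk2 beside other muscle kinases. It had 23 listed genes and 22 above the minimum. In limma it had 0 calls in the orchiectomy contrast, 1 rise in the DHT contrast and 0 calls in the DHT-to-Control contrast, with 2, 9 and 3 genes at an unadjusted p under 0.05. edgeR and DESeq2 also called 0, 1 and 0. The medians of the list were -0.01, 0.01 and 0.01 on the log2 scale, against -0.01, 0.01 and -0.01 for all genes. In the DHT contrast 11 of its genes were higher and 11 lower. Over all genes fitted, 7.21%, 14.3% and 6.48% had an unadjusted p under 0.05 in the 3 contrasts. Limma called 0.0579%, 4.08% and 0.0349% of them. The count of calls in the DHT contrast was 2 with quantile normalisation or a pseudocount of 10, 4 with the replicate number as a block and 1 to 3 when 1 library was left out.

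The kinase that passed was Mylk4, a member of the myosin light chain kinase family. Its normalised counts were 1688, 3770 and 3136 in Control, 2620, 2132 and 1921 in ORX and 4971, 4101 and 4926 in the ORX+DHT group. ORX+DHT was above both other groups without overlap, and Control spanned the ORX range, with Control replicate 1 the lowest of all libraries. The log2 difference in the DHT contrast was 1.08 (SE 0.10, adjusted p = 2.89e-06 in limma), smaller than the 1.94 of Sbk2 on the same scale. In the orchiectomy contrast it was -0.30 (adjusted p = 0.81 in limma), and without Control replicate 1 it was -0.64 (adjusted p = 0.0256 in limma). In the DHT-to-Control contrast it was 0.78 (adjusted p = 0.736 in limma), and without that library it was 0.43 (adjusted p = 0.0498 in limma).

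Kinases of the list that did not pass had values in both directions. Sik1, a salt-inducible kinase, averaged 25.1 ± 12.6, 46.5 ± 16.5 and 25.3 ± 3.26 normalised counts in Control, ORX and ORX+DHT (SD, n = 3 each), with a log2 difference of -0.79 in the DHT contrast (adjusted p = 0.0834 in limma). Speg, a kinase of striated muscle, averaged 849 ± 292, 758 ± 169 and 1018 ± 59.9 (SD, n = 3 each) and differed by 0.45 in that contrast (adjusted p = 0.0533 in limma). Pdk4, which limits the entry of pyruvate into oxidation, averaged 1491 ± 532, 2018 ± 518 and 1445 ± 249.98 (SD, n = 3 each) and differed by -0.46 (adjusted p = 0.094 in limma). Speg passed without ORX replicate 1 or 2, Sik1 without ORX replicate 3, and Pdk4 without ORX replicate 2 or ORX+DHT replicate 3. All 3 passed with the replicate block, Speg also with a pseudocount of 10, and Phkg1 with quantile normalisation alone. Ttn, the giant sarcomere protein with a kinase domain, differed by 0.10.

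**Figure D4:**
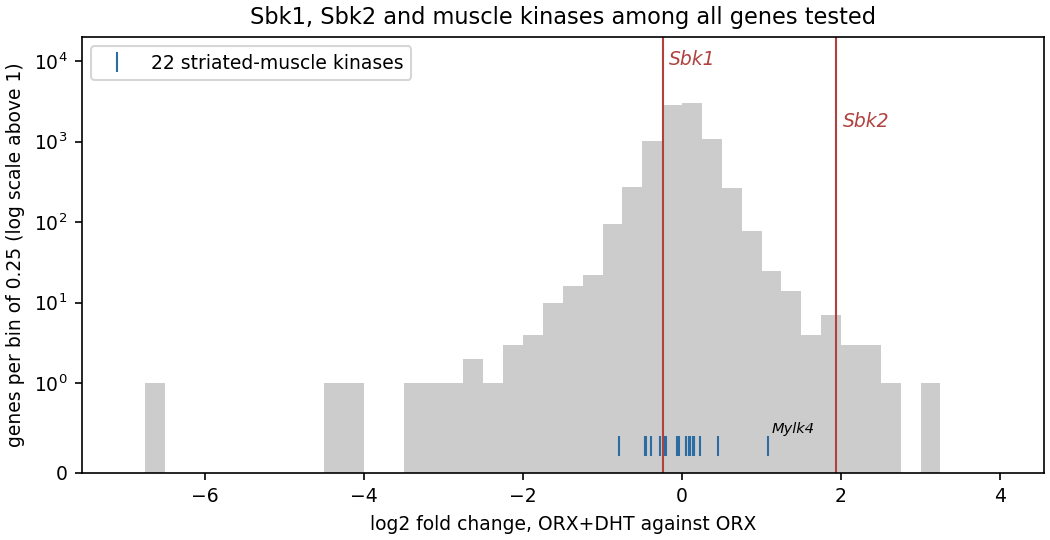
Number of genes per bin of log2 fold change in the DHT contrast for all 8770 genes fitted (grey, log scale), with Sbk1 and Sbk2 as red lines and the 22 striated-muscle kinases as blue ticks. Sbk1 lies at -0.24 within the bulk of genes, Sbk2 at 1.94 has 11 genes above it, and the kinases run from -0.79 to 1.08.

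Sbk2 is best known from the atria, so 11 genes enriched in atrial heart muscle were examined. Of these 8 were listed, and 4 were above the minimum in the orchiectomy and DHT contrasts and 2 in the DHT-to-Control contrast. Nppa, Myl7 and Bmp10, which define atrial muscle cells, were not among the genes analysed here. The summed list ran from 81.2 to 95.3 normalised counts in Control, 82.5 to 114 in ORX and 71.1 to 102 in the ORX+DHT group, so the groups overlapped. Limma called 0, 1 and 0 of its genes in the orchiectomy, DHT and DHT-to-Control contrasts, with 1, 2 and 0 at an unadjusted p under 0.05. Over all genes fitted, limma called 0.0579%, 4.08% and 0.0349%, and 7.21%, 14.3% and 6.48% had an unadjusted p under 0.05. edgeR called 0, 1 and 0, and DESeq2 called 0 in each. The 1 gene was Dkk3, a secreted protein of the Dickkopf family, which fell by 1.68 on the log2 scale (SE 0.35, adjusted p = 0.0072 in limma), in the direction opposite to Sbk2. Dkk3 had few reads, with 8, 7 and 18 in Control, 18, 25 and 25 in ORX and 3, 7 and 8 in ORX+DHT. It was below the minimum in the DHT-to-Control contrast. In the DHT contrast its adjusted p in limma was 0.0529 without ORX replicate 2, and DESeq2 gave it no adjusted p. Kcna5, a potassium channel subunit of the same list, lay in the direction of Sbk2, at 28.0 ± 10.4, 20.7 ± 9.44 and 34.97 ± 5.64 normalised counts in Control, ORX and ORX+DHT (SD, n = 3 each). Its log2 difference was -0.43 in the orchiectomy contrast and 0.80 in the DHT contrast, and neither passed the test (adjusted p = 0.804 and 0.122 in limma).

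The summed markers of some other cell types of the muscle also differed between the groups. The 4 fibro-adipogenic cell markers summed to 851 to 1619 normalised counts in Control, 1880 to 2497 in ORX and 955 to 1401 in the ORX+DHT group. The 3 Schwann cell markers summed to 91.8 to 96.1, 134 to 154 and 89.2 to 124. The 3 satellite cell markers summed to 21.2 to 37.7, 39.2 to 51.0 and 25.3 to 37.7. These 3 sums were highest in ORX without overlap, where Sbk2 was lowest, and of their markers only Myf5 was at 0 in any library (2 libraries). Of the fibro-adipogenic markers 1 of 4 passed the limma test in the DHT contrast, where 4.08% of all genes fitted did. It was Col1a1, which fell by 1.18 on the log2 scale. Col1a1 made up most of that sum, with means of 846, 1682 and 750.4 in Control, ORX and ORX+DHT. The other markers overlapped between all groups, with means of 350 to 398 for Dcn, 17.8 to 20.3 for Pdgfra and 20.5 to 39.8 for Pi16. The macrophage sum was 13.3 to 18.7 in Control, below both ORX (19.6 to 26.5) and ORX+DHT (20.3 to 26.7). The endothelial sum was 693 to 760 in ORX+DHT, above Control (492 to 690) and overlapping ORX (558 to 696). The sums for adipocytes and red blood cells overlapped between all groups. In whole-muscle RNA, fewer cells of a type and less RNA per cell cannot be told apart, and the part of cell make-up in the level of Sbk2 was not tested.

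Some markers of fibre type passed the test as well. In the DHT contrast, 2 of 8 fast-fibre genes passed the limma test as rises, Myh1 by 0.47 and Tnni2 by 0.39 on the log2 scale. Of all genes fitted, 4.08% passed in that contrast. Of the 8 genes 4 were higher and 4 lower, with a median of 0.04, and Myh4 (-0.08), Myh2 (-0.15), Atp2a1 (-0.08) and Actn3 (-0.16) did not pass the test. Both lost the call with all 9 libraries in 1 fit (adjusted p = 0.265 and 0.715 in limma), Myh1 also with quantile normalisation (0.158), and Tnni2 also without ORX replicate 2 (0.0649) or ORX+DHT replicate 3 (0.0756). Of the slow-fibre genes 1 of 3 fitted passed, Myl3, which fell by 0.75, and its call was lost with all 9 libraries in 1 fit (adjusted p = 0.353 in limma) and without ORX replicate 2 (0.126) or ORX+DHT replicate 3 (0.0756). The part of fibre type in the level of Sbk2 was not tested.

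The genes whose pattern over the 9 libraries was most like that of Sbk2 were ranked by Pearson's r of log2(normalised count + 1) among 3794 genes with a mean of at least 50. The 8 highest were Nmrk2 (0.962), St3gal5 (0.960), Rab12 (0.958), Cdk19 (0.958), Slc38a2 (0.957), Tbx15 (0.955), Bmpr2 (0.950) and Evc (0.950). Their Spearman's rho ran from 0.867 to 0.950, and all 8 were among the 50 highest by that measure too. Without Control replicate 1 their r ran from 0.950 to 0.967. The 9 points fall into 3 groups, so r mainly reflects group means, and it is a description with no test.

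Nmrk2, the nicotinamide riboside kinase of muscle, came first. Its normalised counts were 341, 364 and 357 in Control, 192, 107 and 226 in ORX and 626, 750 and 508 in the ORX+DHT group. Its groups had the order of those of Sbk2 with no overlap, which its choice by r favours. St3gal5, which makes the ganglioside GM3, averaged 144 ± 10.1 in Control, 63.5 ± 3.39 in ORX and 205 ± 3.72 in the ORX+DHT group (SD, n = 3 each). Cdk19, a kinase of the Mediator complex, averaged 64.3 ± 12.3, 28.7 ± 2.51 and 92.7 ± 4.94 (SD, n = 3 each), and Slc38a2, an amino acid transporter, 293 ± 25.8, 197 ± 10.7 and 389 ± 31.1 (SD, n = 3 each). Rab12, a small GTPase, averaged 345 ± 21.8, 251 ± 14.7 and 416 ± 16.98, and Evc, a protein of the primary cilium, 66.6 ± 10.8, 36.8 ± 6.82 and 96.5 ± 15.7 (SD, n = 3 each). High likeness did not require a large change, since Bmpr2, a receptor for bone morphogenetic proteins, averaged 168 ± 4.96, 148 ± 8.42 and 188 ± 9.53 (SD, n = 3 each).

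The most opposite patterns were those of Kcnc4 (r = -0.978), Klhl33 (-0.975), Mical2 (-0.973) and Stag2 (-0.962). Kcnc4, a voltage-gated potassium channel subunit, had normalised counts of 301, 343 and 337 in Control, 416, 432 and 404 in ORX and 251, 230 and 257 in the ORX+DHT group. ORX was its highest group and ORX+DHT its lowest, without overlap, which its choice by r favours as well. Klhl33, a kelch-like protein, averaged 459 ± 31.2, 664 ± 17.1 and 303 ± 19.6, and Mical2, an enzyme that oxidises actin, 199 ± 23.8, 271 ± 23.2 and 116 ± 7.19 (SD, n = 3 each). Stag2, a cohesin subunit, had the smallest differences of these 4, at 121 ± 8.14, 141 ± 8.05 and 104 ± 5.43 (SD, n = 3 each). Sbk1 had r = -0.549 with Sbk2 and ranked 3486 of 3794.

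**Figure D5:**
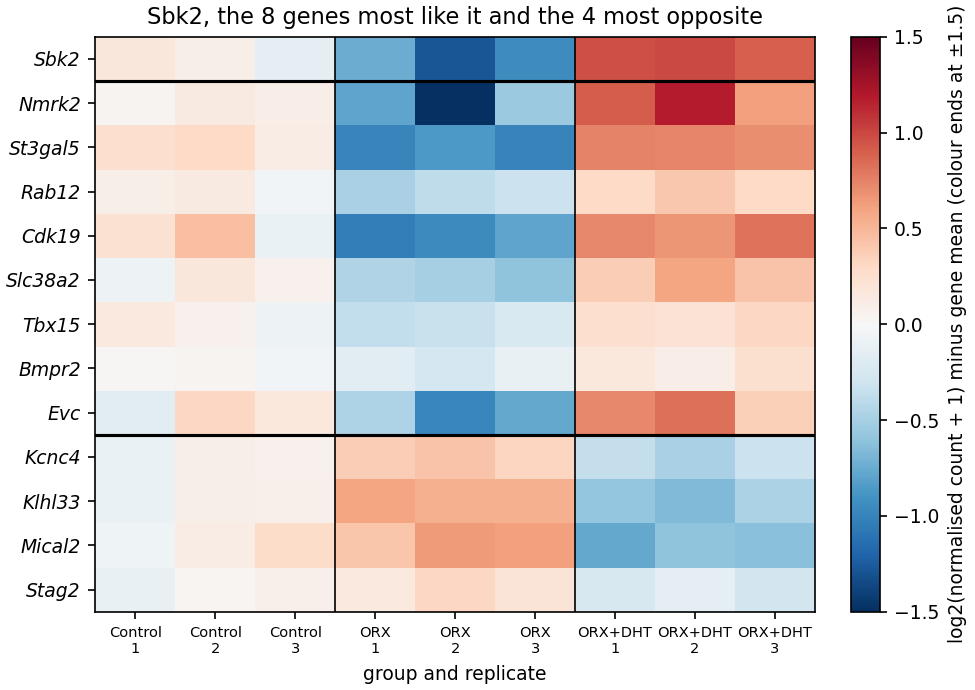
Log2(normalised count + 1) of Sbk2, the 8 genes most like it and the 4 most opposite in each of the 9 libraries, as a colour for the difference from the gene's own mean (red above, blue below). ORX libraries are blue and ORX+DHT libraries red for the first 9 genes, and the colours are exchanged for Kcnc4, Klhl33, Mical2 and Stag2.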

How the data were processed

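The 3 members, the gene lists and the tests were chosen with earlier results of these data known. PolyA-selected RNA was made into directional libraries, per the labels' protocols. Trim Galore 0.6.7, HISAT2 2.2.1, featureCounts 2.0.1, DESeq2 1.36.0 and build GRCm38 are named in the submitters' processing notes, without their settings or the gene annotation. The authors deposited 2 tables of normalised counts, a signal obtained by dividing reads by a factor of the library, with 14596 genes (Control and ORX) and 14675 genes (ORX and ORX+DHT). Every value was a whole multiple of its column's step within a tolerance of 0.01 steps, and whole reads were recovered by division. The step of Control replicate 3 was near 1, at 0.992, and 100% of its values passed this check.

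Columns named sham were taken as Control, the only group without orchiectomy, and matched by replicate number; 0 columns were unmapped. The authors scaled the tables separately, and the orchiectomy and DHT contrasts were each fitted within 1 table. The DHT-to-Control contrast was fitted on the 14300 shared genes with new median-of-ratios factors for the 9 libraries, and printed levels are on that scale. limma 3.58.1 in R 4.3.3 (lmFit, eBayes with trend) was fitted to log2(normalised count + 1) with a pseudocount of 1, for genes with a mean of at least 10. P-values were adjusted over all genes fitted (Benjamini-Hochberg), and an adjusted p under 0.05 made a call. On that scale the changes of low genes are understated. The labels call the samples biological replicates without naming animals, so p-values measure the spread between these samples.

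edgeR 4.0.16 and DESeq2 1.42.0 were run on the recovered reads as alternatives, beside other pseudocounts (0.1, 10), no filter, a minimum mean of 50, TMM and quantile scaling, all libraries in 1 fit, a replicate block and each library left out. Likeness and order without Control replicate 1, and levels by longest transcript, were added after seeing the data. The fits were tested on simulated counts with the same spread setting for all genes. No simulated library stood apart as Control replicate 1 did, so that test does not cover its effect. Named genes were the members, the nearest genes on the chromosome, the 4 closest proteins by BLASTP (BLAST+ 2.17.0), the 8 genes most like Sbk2 and 4 most opposite by Pearson's r, and called genes of the lists. Sik1, Speg, Pdk4, Phkg1, Ttn, Kcna5 and the cell markers named were singled out after their values were seen. Proteins were translated from GENCODE M21 and aligned with Biopython 1.88. The promoter table (RefSeq, GRCm38.p6) matched 2 of the 3 members.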

Additional observations from a re-analysis of the deposited data

How the results depend on the processing

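The log2 differences of Sbk2 moved by less than 1 SD of the replicates in all 16 alternatives of each comparison, and no difference of Sbk1 passed the test in any of them. For Sbk1 in ORX against Control, leaving out 1 library at a time gave -0.0186 to 0.21, and the value below 0 came without Control replicate 1. Sbk3 has no fitted value in the alternatives except without a filter, where its log2 differences were 0.06, -0.14 and -0.08. The counts of genes called were less stable. In ORX against Control (5 called) they were 16 with no filter, 23 with all 9 libraries in 1 fit and 28 by DESeq2, and 1 to 51 when 1 library was left out, 51 without Control replicate 1. In ORX+DHT against ORX (358 called) they were 123 with all 9 libraries in 1 fit, 221 by DESeq2 and 571 with the replicate block, and 223 to 350 when 1 library was left out. Of the 358 calls 209 were rises, and with quantile normalisation 161 of 327 were. In ORX+DHT against Control (3 called) they were 6 with quantile normalisation, 11 with all 9 libraries in 1 fit and 13 by DESeq2, and 0 to 66 when 1 library was left out, 66 without Control replicate 1. The causes of these shifts were not tested.

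Replicate numbers were not taken to pair the samples. Deviations of same-numbered libraries correlated at -0.16, 0.06 and -0.11 between Control and ORX, 0.06, 0.06 and 0.15 between ORX and ORX+DHT, and -0.09, -0.0006 and -0.09 between Control and ORX+DHT. Each ORX library correlated best with its own number in ORX+DHT. With the replicate block there were 5 calls in ORX against Control (2 higher and 3 lower, where the fit without it had 1 and 4) and 3 in ORX+DHT against Control. In ORX+DHT against ORX the block gave 571 calls, where the fit without it had 358. Sbk3, with 0 to 2 reads per library, is limited by depth.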
